A study of Mus musculus with 6 samples.

Results

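The antioxidant and glutathione genes examined here were 44 mouse genes, chosen by name for enzymes that remove superoxide and peroxides, make and use glutathione, or control these enzymes. Of these, 43 stood in the deposited table under their own symbols, and all 43 reached the minimum for reporting, a mean normalized count of 10 over the libraries, among 33924 genes in the table and 18479 genes at that level. The 44th gene, Msrb1, was listed under its older symbol Sepx1 and is described below outside the counts.

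RPE/choroid, the retinal pigment epithelium together with the vessel layer behind it, was scraped from the eyecups of C57BL/6J mice after the neural retina had been removed, and poly(A) RNA was sequenced. The young group held 3 mice of 1 to 2 months. The aged group held 3 mice of 20 to 24 months by their titles and of 22 to 24 months by their age field. All 6 mice are male by the labels, while the methods of the study name both sexes and a somewhat older age for the young mice, and both eyes of a mouse were pooled in a sample.

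The deposited values used here are the authors' mean normalized counts, 1 value per gene taken over all 6 libraries of both ages. They carry no error, and neither the level in a single library nor a difference between young and aged mice was analysed here. The means added up to 40816668 over all genes, and the depth of single libraries is unknown. A level below is either this mean, which grows with the length of the transcript, or the mean divided by length in kb, which was used wherever genes were set against each other.

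Cells clear superoxide with superoxide dismutases, which turn it into hydrogen peroxide, and clear hydrogen peroxide with catalase, glutathione peroxidases and peroxiredoxins. Glutathione, a small peptide made from glutamate, cysteine and glycine, and thioredoxin, a small protein, supply the electrons, and both are kept reduced at the cost of NADPH. The RPE is known for a high oxidative load, since it takes up the shed tips of photoreceptors, faces bright light and borders a dense bed of vessels. The transcription factor NRF2, held in check by KEAP1, switches on many of these genes.

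Several of the enzymes react through a selenocysteine, the selenium form of cysteine, which is encoded by TGA, a codon that elsewhere ends translation. The bases around that codon are shown because they separate the selenium enzymes of the list from their cysteine relatives. Coordinates are those of the codon in GRCm38 with the GENCODE annotation, the codon is in capitals, and each sequence runs 5′ to 3′ along the gene.
Gpx1 (chr9:108339451-108339453, plus strand, exon 1 of 2): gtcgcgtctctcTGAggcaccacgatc
Gpx3 (chr11:54907256-54907258, plus strand, exon 2 of 5): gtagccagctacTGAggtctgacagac
Gpx4 (chr10:80054737-80054739, plus strand, exon 3 of 7): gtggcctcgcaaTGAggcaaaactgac
Txnrd1 (chr10:82896037-82896039, plus strand, exon 14 of 14): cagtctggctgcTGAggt
Txnrd2 (chr16:18477772-18477774, plus strand, exon 17 of 17): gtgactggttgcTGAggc
Msrb1 (chr17:24740158-24740160, plus strand, exon 3 of 4): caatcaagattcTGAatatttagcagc
Gpx7 (chr4:108403430-108403432, minus strand, exon 2 of 3): gtagctagcgaaTGTggcttcacagac
Gpx8 (chr13:113045661-113045663, minus strand, exon 2 of 3): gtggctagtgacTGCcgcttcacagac
In Gpx7 and Gpx8 the codon aligned with the selenocysteine of Gpx4 is one for cysteine, TGT and TGC. In Txnrd1 and Txnrd2 the selenocysteine is the last residue but one, codon 498 of 499 and codon 526 of 527 in the transcripts used.

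Thioredoxins and glutaredoxin react through a pair of cysteines with 2 residues between them. These sites are shown to set the cytosolic, the mitochondrial and the glutathione-dependent protein side by side, with the codons from the first to the second cysteine in capitals.
Txn1 (chr4:57951821-57951832, minus strand): gctacgtggTGTGGACCTTGCaaaatgatc
Txn2 (chr15:77924651-77924662, minus strand): gcacagtggTGTGGCCCCTGCaagatccta
Glrx (chr13:75840035-75840046, plus strand): aagcccaccTGCCCCTACTGCagaaagacc
The site starts at codon 32 of 105 in Txn1, codon 90 of 166 in Txn2 and codon 23 of 107 in Glrx. The bases shown for Txn2 follow the transcript and span an exon boundary outside the capitals, so they are not contiguous in the genome.

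As a group, the listed genes stood high in RPE/choroid. Their median mean normalized count was 2975, with a range from 33.7 for Mgst2 to 32108 for Prdx1, beside a median of 668 over the 18479 genes. Per kb of the longest transcript their median was 2168, and that of the 17975 genes with an annotated length was 213. By this measure 38 of the 43 genes lay above the median of all genes, 32 above the upper quartile of 668, 22 above the 90th percentile of 1897 and 2, Gpx4 and Gsta4, above the 99th percentile of 17831. The median listed gene was at the 91.2nd percentile. Together the 43 genes held 0.647% of all counts while making up 0.233% of the genes. These are descriptions of a list of well-known enzymes chosen by name, and no test was made of them.

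**Figure D1:**
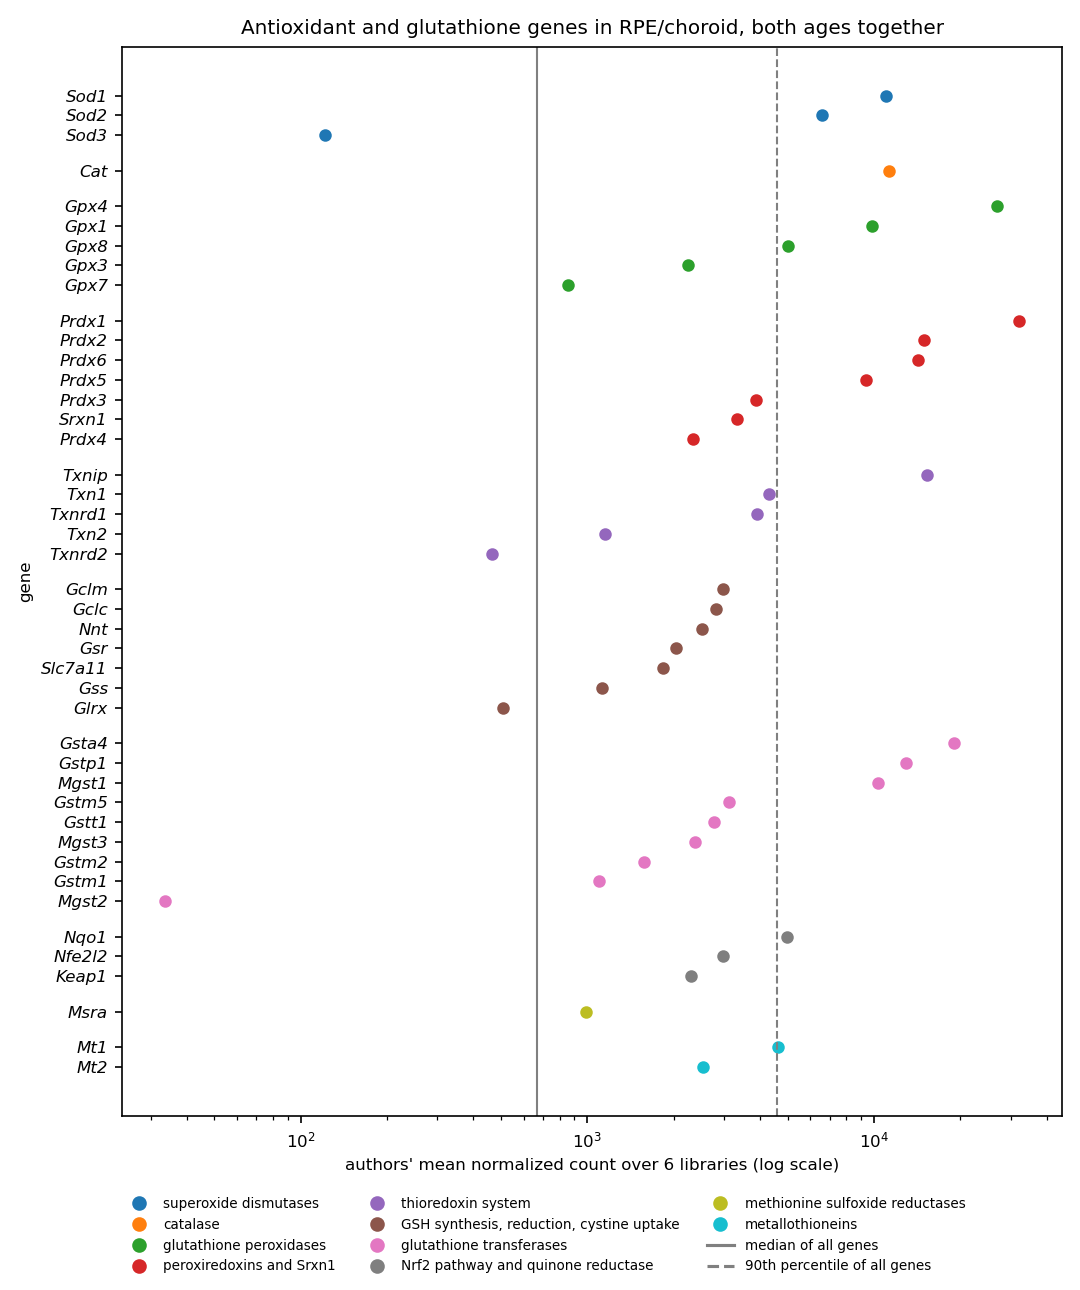
Authors' mean normalized count over the 6 libraries (log scale) of each of the 43 genes, 1 point per gene, coloured and grouped by role, with the median (668) and the 90th percentile (4585) of all genes as lines. Prdx1, Gpx4 and Gsta4 lie farthest right, and Sod3, Txnrd2, Glrx and Mgst2 lie left of the median.

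Length mattered for some of these levels, because the longest annotated transcript of a gene need not be the form that is used. For Sod1 the level per kb was 2765 with the longest transcript and 17123 with the median protein-coding transcript. Gclm moved from 530.1 to 2957 and Prdx1 from 13996 to 48575. Orders of level are therefore given below only where they were the same with the longest transcript, with the median coding transcript and with the coding sequence, unless said otherwise. With the median coding transcript 39 of the 43 genes lay above the median of all genes and 18 above the 90th percentile, and with the coding sequence the numbers were 40 and 21. Sod3, Txnrd2 and Mgst2 lay below the median of all genes with each of the 3 lengths.

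**Figure D2:**
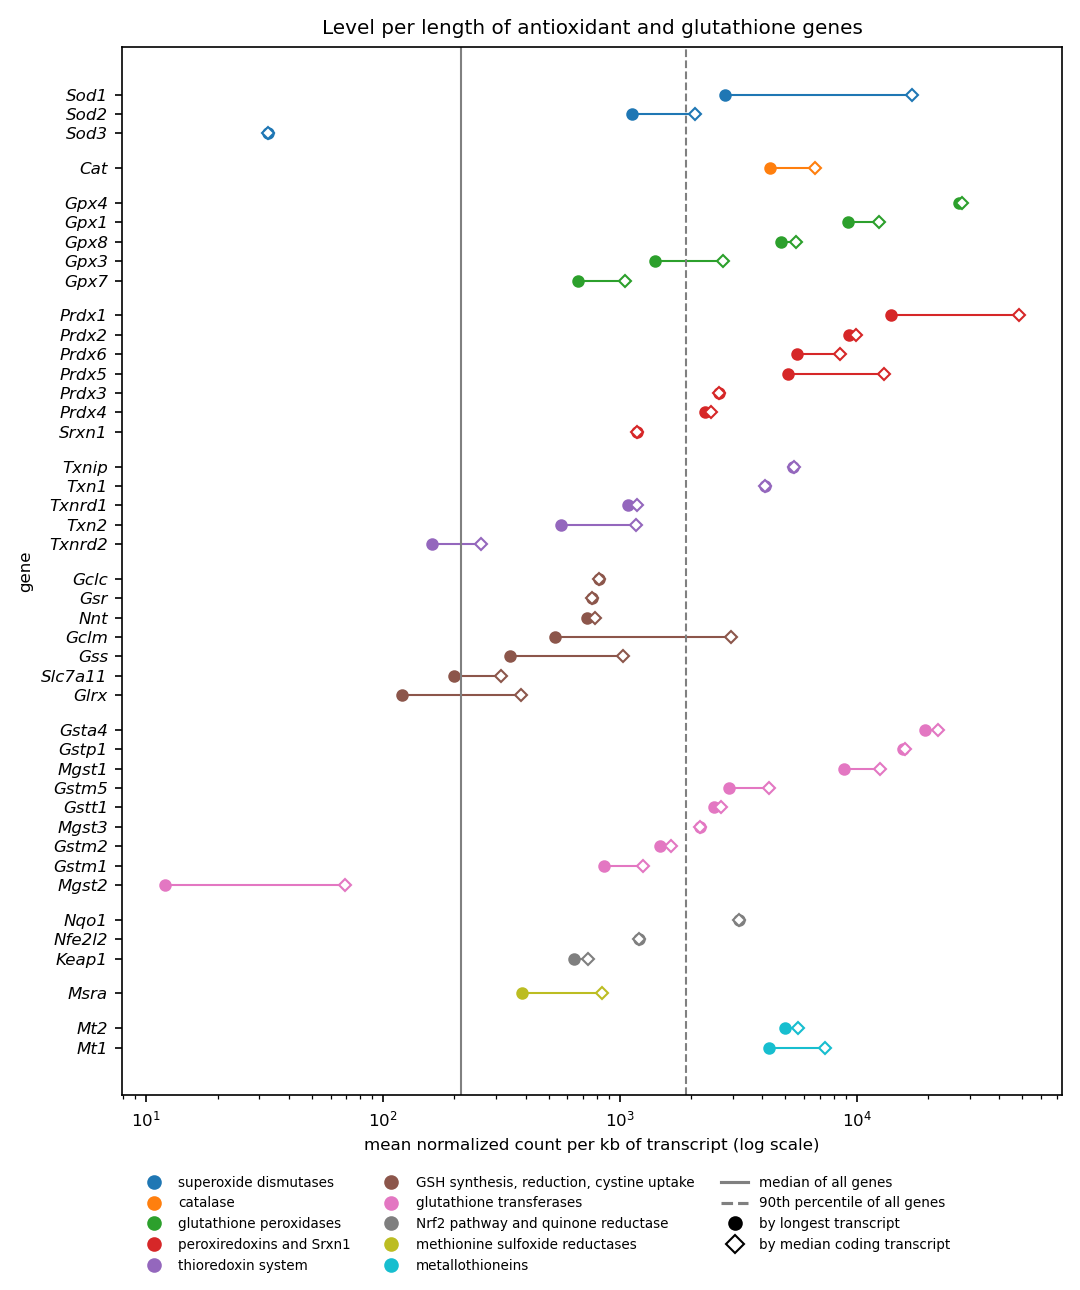
Mean normalized count per kb of transcript (log scale) of each gene, with filled points for the longest transcript and open diamonds for the median coding transcript, joined by a line, and vertical lines for the median (213) and 90th percentile (1897) of all genes by the longest transcript. Sod1, Prdx1, Gclm and Mgst2 have long joining lines, so their place in the order depends on the length used, whereas Gpx4, Gsta4 and Gstp1 stay among the highest.

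Of the superoxide dismutases, the copper-zinc enzyme of the cytosol, Sod1, had a mean normalized count of 10976 and the manganese enzyme of mitochondria, Sod2, one of 6564. Sod3, the form secreted into the matrix, had 122. Per kb of the longest transcript the levels were 2765, 1120.0 and 32.6. Sod1 was thus 2.47-fold above Sod2 and 84.8-fold above Sod3, and with the median coding transcript 8.23-fold and 525-fold. By the longest transcript Sod3 was at the 18.3rd percentile of all genes and was the second lowest of the listed genes. With the median coding transcript it was the lowest, at 32.6 per kb beside 69.3 for Mgst2. Sod1 occupies chr16:90220754-90226329 (plus strand). Of its words of 50 bases, 76.9% occur in no other gene and the rest in Gm8566, which was listed with a mean of 896, so part of the reads of either gene could have been given to the other. Ccs, the chaperone that loads copper into Sod1, had 1469 per kb.

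Catalase (Cat), the peroxisomal enzyme that splits hydrogen peroxide into water and oxygen, had a mean normalized count of 11267 and 4312 per kb, at the 95.6th percentile. The glutathione peroxidases are named for reducing peroxides with glutathione, and the listed ones differed widely among themselves in level. Gpx4, which reduces lipid peroxides within membranes and protects cells from ferroptosis, had 26811, and its 26946 per kb was the highest level of the list by the longest transcript. Gpx1, the soluble enzyme of cytosol and mitochondria, had 9813 and 9154 per kb. Gpx4 was 2.94-fold above Gpx1 and 6.25-fold above Cat per kb, and Gpx1 was 2.12-fold above Cat. Both orders held with the other lengths. Gpx4 carries a caution, since 48.6% of its words of 50 bases are found in no other gene and most of the rest is shared with the pseudogene Gpx4-ps2, for which no level is given here.

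The other glutathione peroxidases act outside the cytosol. Gpx3, the form secreted into plasma, had a mean normalized count of 2249 and 1411 per kb. Gpx8, a membrane protein of the endoplasmic reticulum, had 4999 and 4797 per kb. Gpx7, the related enzyme of the same compartment, had 855 and 663 per kb, and Gpx8 was 7.23-fold above it. The selenocysteine enzymes Gpx1, Gpx3 and Gpx4 and the cysteine enzymes Gpx7 and Gpx8 overlapped in level, since Gpx8 stood above Gpx3. Gpx2, the intestinal enzyme, had a mean normalized count of 9.85 and fell below the minimum, as did Gpx5 and Gpx6.

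Peroxiredoxins, which reduce hydrogen peroxide through a cysteine and mostly draw on thioredoxin, held 30.3% of the summed counts of the list together with their repair enzyme, more than any other role group. This lead was in counts, which grow with transcript length. Summed per kb of the longest transcript, the group had 40024, below the glutathione transferases with 53946 and the glutathione peroxidases with 42971. Prdx1, a cytosolic enzyme, had the highest mean normalized count of the list at 32108. It reached 13996 per kb of the longest transcript, the fourth highest level, and 48575 per kb of the median coding transcript, the highest. Prdx2, the other main cytosolic form, had 14898 and 9242 per kb. Prdx6, which has a single reactive cysteine and also acts on phospholipids, had 14269 and 5578 per kb. Prdx5, found in mitochondria, peroxisomes and cytosol, had 9351 and 5121 per kb. Prdx3, the mitochondrial form, had 3869 and 2618 per kb, and Prdx4, the form of the endoplasmic reticulum, had 2344 and 2287 per kb. Prdx1 was above each of Prdx2, Prdx5, Prdx6 and Prdx4 and Prdx2 was above Prdx3 with every length, by 1.51-fold for Prdx1 over Prdx2 and 3.53-fold for Prdx2 over Prdx3 with the longest transcript. The order of Prdx2 and Prdx5 changed with the length. Srxn1, sulfiredoxin, which restores overoxidised peroxiredoxins, had 3321 and 1181 per kb.

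Prdx2 is a major protein of red cells, and haemoglobin RNA was present in the tissue. Hba-a1, an alpha globin gene, had 54142 per kb, 5.86-fold above Prdx2. Of the 6 red cell markers looked up, 4 were found under their symbols. Hba-a2, the other alpha globin gene, had 64451 per kb, Alas2, which starts haem synthesis in red cell precursors, had 781 and Slc4a1, the anion exchanger of the red cell membrane, had 9.94. The part of red cells in the level of Prdx2 was not tested. Prdx2 also overlaps Junb by 351 bases and Rnaseh2a by 181 bases on the opposite strand, and whether the authors' quantification used strand is not given in the sources used here.

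In the thioredoxin system, the cytosolic protein of each pair was the higher. Txn1, cytosolic thioredoxin, had a mean normalized count of 4288 and 4080.3 per kb, and Txn2, the mitochondrial protein, had 1156 and 564 per kb. Txnrd1, the cytosolic selenoprotein that reduces thioredoxin, had 3910.1 and 1079.5 per kb, and its mitochondrial counterpart Txnrd2 had 465 and 162 per kb, at the 43.9th percentile of all genes. The folds were 7.23 for Txn1 over Txn2 and 6.68 for Txnrd1 over Txnrd2, and both orders held with every length. Other pairs did not all share this order, since Glrx, the cytosolic glutaredoxin, was below the mainly mitochondrial Glrx2 with every length. Txnrd3, the remaining reductase, which is best known from testis, had 388 per kb. Txnip, which binds thioredoxin and blocks it, had 15245 and 5393 per kb, at the 96.4th percentile. Txnip stood 1.32-fold above Txn1 with the longest transcript and slightly below it, at a ratio of 0.940, with the coding sequence.

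The genes that make glutathione were moderate in level. Slc7a11, the exchanger that brings cystine into the cell, had a mean normalized count of 1835 and 199 per kb. Its longest transcript, at 9223 bases, is also the longest of the list. Slc3a2, the partner chain of this exchanger and of other amino acid transporters, had 2329 per kb. Gclc and Gclm, the catalytic and the modifier subunit of glutamate-cysteine ligase, the rate-limiting enzyme, had means of 2803 and 2963. Per kb they had 819 and 530.1 with the longest transcript and 819 and 2957 with the median coding transcript, so which subunit was higher could not be settled from these values. Gclm overlaps the noncoding gene Gm17494 on the opposite strand over 14775 bases, and Gm17494 was listed with a mean of 6868. Gss, glutathione synthetase, which adds the glycine, had 1122 and 344 per kb, and overlaps Acss2 on the opposite strand over 22544 bases.

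Glutathione is kept reduced by Gsr, glutathione reductase, which had a mean normalized count of 2039 and 763 per kb. Nnt, the mitochondrial enzyme that makes NADPH from NADH with the proton gradient, had 2505 and 723 per kb. C57BL/6J mice, the strain used here, are known to carry a deletion within Nnt, so this level cannot be read as that of a whole transcript. Glrx, glutaredoxin, which removes glutathione from protein cysteines, had 508 and 120.3 per kb. Of its relatives, Glrx3 had 1425, Glrx5, the mitochondrial protein of iron-sulfur assembly, had 680.0 and Glrx2 had 269 per kb. The 7 genes of glutathione synthesis, reduction and cystine uptake lay between 120.3 and 819 per kb and held 5.21% of the counts of the list. With the longest transcript, none of the 7 reached the 90th percentile of all genes.

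Glutathione transferases, which join glutathione to reactive compounds, ranged over 1621-fold per kb of the longest transcript. Gsta4, known for its action on 4-hydroxynonenal, a product of lipid peroxidation, had a mean normalized count of 19035 and 19483.5 per kb, at the 99.1st percentile. Gstp1 had 12897 and 15709 per kb, at the 98.8th percentile, and Gsta4 was 1.24-fold above it. Gsta4 was 3.74-fold above Gsta1, which had 5213 per kb of the longest transcript, and Gsta2 and Gsta3 had 3263 and 2062. The order of Gsta1 and Gsta3 changed with the length, and Gsta4 was above both with every length. Gstp1 shares sequence with its neighbour Gstp2, and 49.0% of its words of 50 bases are found in no other gene. Gstp2 was listed with a mean of 4311 and 5409 per kb, and how reads were divided between this pair is uncertain. The coding sequence of Gsta4 holds 0 codons for cysteine among 222.

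The mu and theta genes were lower than Gsta4 and Gstp1. Gstm5 had a mean normalized count of 3127 and 2888 per kb, Gstm2 had 1573 and 1478 per kb and Gstm1 had 1101 and 854 per kb. This order, with Gstm5 3.38-fold above Gstm1, held with every length. The 3 genes lie together on chromosome 3, with Gstm2 and Gstm1 25.8 kb apart on the minus strand and Gstm5 83.0 kb from Gstm2 on the plus strand, at chr3:107895821-107898686. Gstm1 has 80.1% of its words of 50 bases to itself, and Gstm2 has 91.7%. Gstm7, Gstm6 and Gstm4 had 241, 188 and 76.4 per kb, and Gstm3 fell below the minimum. Gstt1 had 2769 and 2506 per kb, above Gstt2 with 1172 and Gstt3 with 537 per kb of the longest transcript.

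The microsomal transferases are membrane proteins of another fold, and by the longest transcript they included the lowest of the listed genes. Mgst1, which also reduces lipid peroxides, had a mean normalized count of 10325 and 8848 per kb, at the 97.7th percentile. Mgst3 had 2379 and 2168 per kb, and was the median gene of the list by the longest transcript. Mgst2, which can make leukotriene C4, had 33.7 and 12.02 per kb, at the 7.91st percentile. Mgst1 was 736-fold above Mgst2 with the longest transcript, 180.0-fold with the median coding transcript and 197-fold with the coding sequence. Mgst2 passed the minimum of 10 and did not pass the stricter minimum of 50. Gsto1, an omega-class transferase outside the list, had 18935 per kb, and its order against Gsta4 changed with the length. Gstk1, Gstz1 and Gsto2, also outside the list, had 669, 405 and 68.9 per kb of the longest transcript.

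The regulators Nfe2l2 and Keap1 lay above the median of all genes with every length. Nfe2l2, which encodes NRF2, had a mean normalized count of 2975, the median of the list, and 1202 per kb. Keap1, the sensor that sends NRF2 to degradation, had 2305 and 638 per kb, so Nfe2l2 was 1.89-fold above it. Nqo1, a quinone reductase widely used as a target gene of NRF2, had 4954 and 3189.95 per kb, 5.002-fold above Keap1. Both orders held with every length. Cul3, the ligase scaffold on which KEAP1 works, had 1302 and Sqstm1, the autophagy receptor that binds KEAP1, had 9734 per kb, and Sqstm1 was 8.10-fold above Nfe2l2. Bach1, a repressor that competes for the same DNA element, had 321 per kb. This was above the median of all genes by the longest transcript and below it, at 353, by the median coding transcript. Nfe2l1, of the same family as Nfe2l2, had 2607 per kb and was above Nfe2l2 with every length. Nqo2, of the same family as Nqo1, had 348 per kb and was below Nqo1 with every length. RNA levels of Nfe2l2 and Keap1 do not measure NRF2 activity, which is set largely at the protein.

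Promoters were searched for TGACNNNGC, the core of the antioxidant response element bound by NRF2 with small MAF proteins, on both strands. The windows were those of RefSeq for GRCm38.p6, from 250 bases before to 50 bases after a start, and 37 of the 44 genes had at least 1 window. Sod3, Prdx6, Gclc, Gsr, Gsta4, Msra and Nnt were not matched. The core was present in 9 genes, in 9 of 45 windows (20%), beside 12.4% of all 32851 windows. Each match is shown because these are the windows of the list that hold the core, which stands in capitals, 5′ to 3′ on the strand that carries it.
Prdx1 (chr4:116685466-116685474): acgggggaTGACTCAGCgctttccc
Mt2 (chr8:94172539-94172547): agggggtgTGACTCAGCgcgggggg
Nfe2l2 (chr2:75704895-75704903): agcccaccTGACTCCGCcatgcccc
Gstm5 (chr3:107895812-107895820): ccgcccacTGACCACGCggagggcg
Sod1 (chr16:90220706-90220714): cctgagtcTGACCACGCccaccttg
Mgst1 (chr6:138140471-138140479): ccgcctccTGACCGTGCcaagcccc
Gclm (chr3:122245423-122245431): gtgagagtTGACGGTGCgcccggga
Srxn1 (chr2:152105552-152105560): tctcactcTGACCTAGCtgcccact
Txnrd1 (chr10:82859114-82859122): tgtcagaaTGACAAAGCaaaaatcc
The core as written lies on the strand of the gene in Mt2, Nfe2l2 and Gstm5 and on the other strand in the remaining 6. Prdx1 and Mt2 share all 9 bases of the core, and so do Gstm5 and Sod1. With A or G required in front of the core, 3 genes were left, Prdx1, Mt2 and Txnrd1. Matches then lay in 6.67% of the windows of the list, beside 6.31% of all windows. The median level per kb was 2765 in the 9 genes with the core and 2287 in the 27 reported genes whose windows lacked it. A match describes these letters only and does not show binding.

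The metallothioneins Mt1 and Mt2, small proteins that bind zinc and copper and scavenge radicals, had mean normalized counts of 4630.1 and 2535. Per kb of the longest transcript they had 4267 and 4961, at the 95.5th and 96.1st percentiles, and their order turned with the median coding transcript. Of 61 codons, 20 encode cysteine in each, which is 32.8%. Both genes are on the plus strand of chromosome 8, 5.51 kb apart, with Mt2 at chr8:94172664-94173568 and Mt1 at chr8:94179082-94180327. Mt3, another gene of this family that is best known from brain, had 4691 per kb, and Mt4 was listed at 0. The cores of the metal response element, TGCGCNC and TGCACNC, occurred on either strand in 22.2% and 13.3% of the windows of the list, beside 15.4% and 12.6% of all windows. For TGCACNC, the same sites of Gstm1 and Glrx were counted in overlapping windows. By gene, TGCGCNC was found in 10 of 37, beside 17% of all genes, and TGCACNC in 4 of 37, beside 14.2%. Mt1 and Mt2 were the only genes of the list with both forms. In Gclm a match to TGCGCNC overlaps the antioxidant element core.

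The methionine sulfoxide reductases repair oxidised methionine. Msra, which acts on the S form, had a mean normalized count of 991 and 388 per kb. Msrb1, a selenoprotein that acts on the R form, had 1655 and 1367 per kb under its older symbol. Msrb2 and Msrb3, which carry no selenocysteine, had 1509 and 1201 per kb, and Msrb3 was above Msra with every length, by 3.10-fold with the longest transcript.

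Beyond the listed genes, 67 other genes of glutathione use, NADPH supply, selenoprotein synthesis and NRF2 control were looked up, and 62 reached the minimum. Their median was 901 per kb, 53 lay above the median of all genes and 18 above the median of the listed genes. The highest was Selenop, the secreted protein that carries selenium, with 29871 per kb, 1.11-fold above Gpx4. Taldo1, transaldolase of the pentose phosphate pathway, had 17857 and Park7, a redox-sensitive chaperone, had 12608 per kb of the longest transcript. Tkt, transketolase of the same pathway, had 6786, and Idh2, the mitochondrial isocitrate dehydrogenase that makes NADPH, had 4286 per kb.

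**Figure D3:**
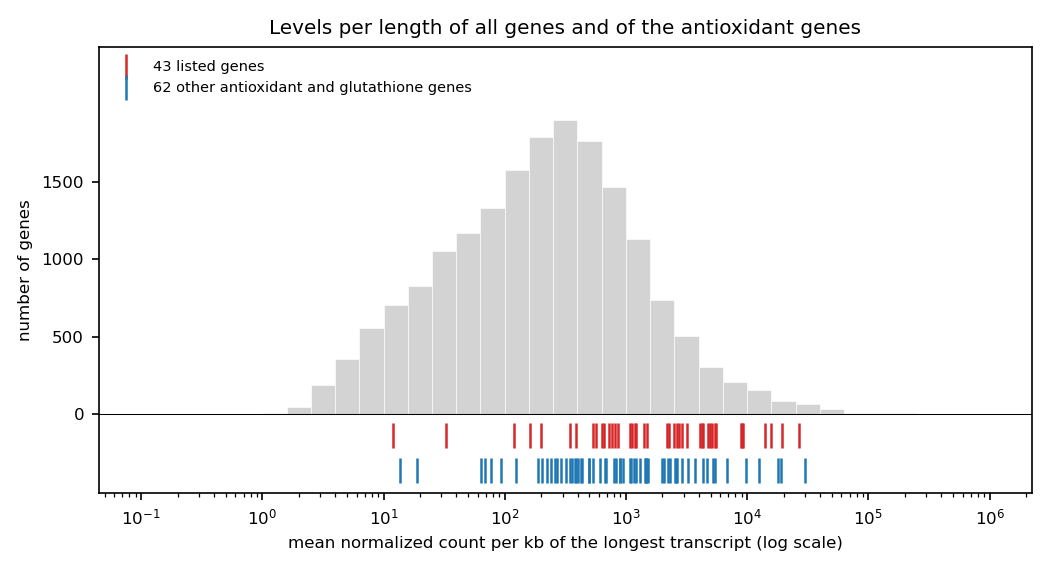
Histogram of the mean normalized count per kb of the longest transcript (log scale) over the 17975 genes with an annotated length and a mean of at least 10, with ticks below for the 43 listed genes (red) and for 62 other genes of the same pathways (blue). Most red ticks lie right of the peak of the histogram, and Mgst2 and Sod3 lie far to the left.

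The label RPE/choroid was checked against marker genes. All 8 RPE markers were present, with a median of 34564 per kb and Ttr the highest at 335233, and they held 2.45% of all counts. Best1, the chloride channel of the RPE, was low at 39.3 per kb, whereas Rpe65, the isomerase of the visual cycle, had 61154. Markers of other cells were present too. The 7 rod markers analysed had a median of 4401 per kb, with Gnat1, the rod transducin, the highest at 10858, and held 0.318% of all counts, and the 6 skeletal muscle markers had a median of 20416 and held 0.552%. Medians were 4823 for 6 macrophage markers, 6959.7 for 5 fibroblast markers, 1079 for 6 endothelial markers and 2263 for 6 lens markers. The lowest lens marker, Mip, was at 17.3 per kb. The listed genes are used by many cell types, and the part of each cell type in their levels was not tested. In such bulk tissue, fewer cells of a type and less RNA per cell cannot be told apart.

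**Figure D4:**
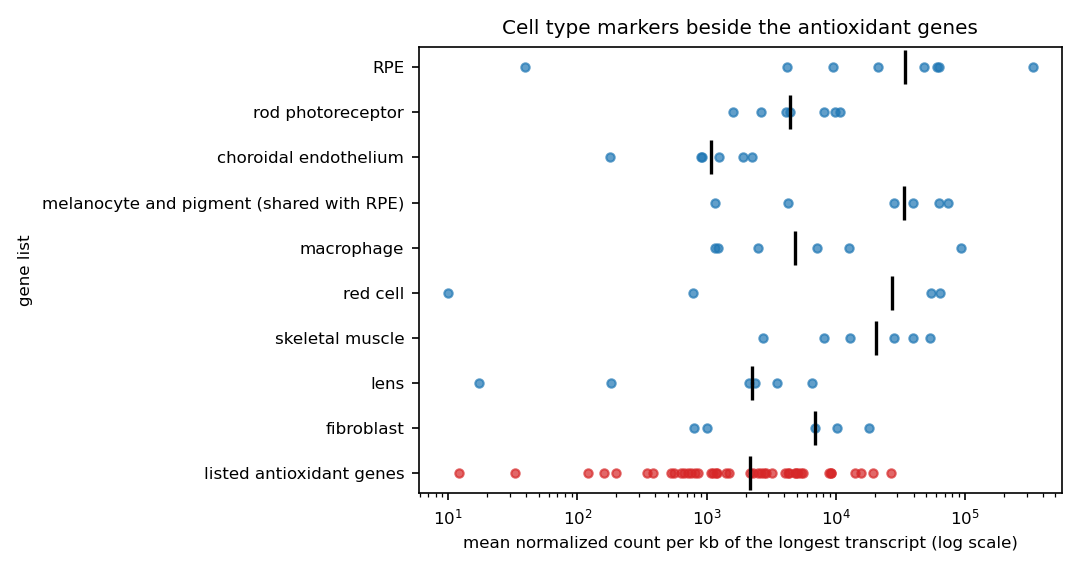
Mean normalized count per kb of the longest transcript (log scale) of each marker gene by cell type list (blue points) and of the 43 listed genes (red points), with black bars at the median of each row. The RPE and pigment rows have medians of 34564 and 33901 and stand farthest right, and of the other rows only the endothelial one has a median below that of the listed genes (2168).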

How the data were processed

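Per the labels and the paper's methods, the authors removed ribosomal RNA, selected poly(A) RNA, trimmed reads with BBDuk, mapped them with STAR to GRCm38 transcripts, quantified them with Sailfish, scaled them by total count and compared the ages with DESeq2. The deposited signal used is the authors' mean normalized count over 6 libraries. The other deposited columns hold the authors' own comparison (log2 fold change, its standard error, statistic, p-value and adjusted p-value) and were not used. The planned test of young against aged needed values per library and could not be run. Columns of single samples left unused numbered 0.

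Genes were matched by symbol or synonym to GENCODE release M 21 (97.3% of 18479 genes). Levels were divided by the longest transcript, or by the median coding transcript or coding sequence. A word of 50 bases counted as a gene's own if no other gene held it. The named genes are every listed gene at the minimum of 10 and the 10 highest other pathway genes per kb. Genes of a listed gene's family are named too, except Hpgds and Ptges, whose levels are not described. Further genes (Ccs, Slc3a2, Cul3, Bach1) were named for their role after their values were seen. Of the planned rod markers, 1 is not reported here. Members and lists were chosen with earlier results of these data known. Functions were tested on simulated data. Python 3.11.15, numpy 2.4.6, Biopython 1.88 and matplotlib 3.10.9 were used.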

Additional observations from a re-analysis of the deposited data

How the results depend on the processing

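The number of listed genes reported was 43 with no minimum and 42 with a minimum of 50 or 100, and 44 with Msrb1 under its older symbol, a setting added after the data were seen. Their median mean normalized count was 2975 and lay between 2969 and 3051 under these settings. The median per kb was 2168 with the longest transcript, 2618 with the median coding transcript and 4654 with the coding sequence, by construction of the shorter length. Set against the median of all genes under the same length, also added after the data were seen, the fold was 10.2, 7.41 and 8.77. The percentile of the median listed gene was 91.2 among all genes, 92.2 among protein-coding genes and 93.5 with no minimum, and it was 87.9 with the median coding transcript and 89.5 with the coding sequence. The share of counts was 0.569% without Prdx1. The antioxidant element core was found in 9 genes, and in 3 with A or G in front, a stricter search.

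No paired analysis was possible because the values used are means over all libraries. For the same reason the fits with edgeR, limma or DESeq2 and those leaving out each mouse were not run, and the values carry no error. Sequence shared with other genes leaves the levels of Gpx4, Gstp1, Sod1, Gstm1 and Gstm2 uncertain.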

Other observations

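Near-copies of listed genes had levels of their own in the table. Gm8566 had a mean normalized count 8.16% of that of Sod1, and Gm7204, which shares sequence with Prdx1, had 643, or 2.00% of that of Prdx1. Prdx6b had 39.1 beside 14269 for Prdx6. Of the 43 listed genes, 29 had all of their words of 50 bases to themselves and 39 over 90%. In 17 genes the annotation places another gene over part of the locus, on the opposite strand in 14 of them.

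The lowest means fell on 6 step sizes, between 0.157 and 0.174, as for genes read in a single library. Within 2e-06 per count of a multiple of a step, 576 genes were at 1 count, 1014 at 2 counts, 64 at 3 counts and 222 at 4 counts. Even counts were thus the more frequent, which was not looked into further.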
